A study of Mus musculus with 8 samples.

Results

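The interleukin 1 family genes described here are 10 mouse genes chosen by symbol: the cytokine genes Il1a, Il1b and Il18, the antagonist genes Il1rn, Il18bp and Il1r2, the receptor gene Il1rl1, and Casp1, Pycard and Nlrp3, which encode parts of the inflammasome. Of these, 9 had a probe among the 45281 probes of the array, with 16 probes in all, and 8 could be tested, among 10068 named genes and 12793 genes and unnamed probes in all. No probe was paired with Il1rl1, which is not analysed here. The cells were macrophages grown from the bone marrow of C57BL/6 mice for 7 days with the growth factor M-CSF. They formed 4 groups of 2 arrays. In the first, cells received 1 µM all-trans retinoic acid (ATRA), a vitamin A metabolite that activates nuclear receptors, together with culture supernatant of the omentum, a fatty tissue of the abdominal cavity (ATRA+OMsup). The other groups received the supernatant alone (OMsup), ATRA alone, or neither (untreated). Treatments lasted 24 h in medium without serum, and nothing in the labels tells if untreated cells were moved to that medium. They also do not state whether the arrays of a group came from separate cultures or animals, so p-values measure only the spread between these arrays, which may be technical.

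Interleukin 1 beta and interleukin 18 are made as inactive precursors that the protease caspase-1 cuts. Caspase-1 is itself activated in inflammasomes, in which a sensor such as NLRP3 recruits it through the adaptor ASC, the product of Pycard. Interleukin 1 alpha needs no such cut to be active. The family is held in check by antagonists. The receptor antagonist encoded by Il1rn occupies the interleukin 1 receptor without signalling, and the decoy receptor encoded by Il1r2 binds the cytokine. The binding protein encoded by Il18bp neutralises interleukin 18. In macrophages, Il1b and Nlrp3 are best known as genes that inflammatory stimuli induce, while Il18 and Casp1 are expressed without a stimulus.

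Each array had 16116 to 16784 probes above background, and replicate arrays correlated across detected probes at 0.989 to 0.992. All 7 macrophage markers with a probe were above background in each group, but their levels differed. Against untreated cells, the combination raised 3 and lowered 1 by limma at an adjusted p under 0.05 (7.88% and 7.26% over all genes and probes). ATRA raised 1, Mertk (log2 change 1.13, adjusted p = 0.00619), and OMsup lowered 1, Cd14 (log2 change -0.93, adjusted p = 0.000468). The part of these markers in the results below was not tested. Mesothelial markers were not above background in any group (0 of 7). The most in any group was 1 of 6 adipocyte, 2 of 7 fibroblast and 2 of 10 mast cell and basophil markers. Of the dendritic cell markers, 4 of 8 were above background in ATRA+OMsup cells and fewer in the other groups. For B cell markers the count was 1 of 3 in each group. Of the T, NK and innate lymphoid cell markers, 3 of 8 were above background with the combination and 2 of 8 in the other groups, among them Il7r, the interleukin 7 receptor gene, and not the Cd3 genes of the T cell receptor complex. The neutrophil markers, of which 8 or 9 of 11 were above background, differed between groups, and their summed levels stand beside Il1b below.

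Il1b had the widest range of group means among the 8 tested members: OMsup raised it, ATRA lowered it, and with both it was far below its OMsup level. Il18 and Casp1 were lower in both groups that received ATRA, and Casp1 was lowest with both agents. Pycard was higher with the combination than in any other group. The antagonist genes Il1rn and Il18bp did not pass the test in any comparison. Levels are given as normalized log2 intensity, changes as log2 differences with the standard error (SE) of limma's fit to all 8 arrays, and a call as an adjusted p under 0.05 over all 12793 genes and probes. Of the 8 tested members, ATRA alone lowered 3 and raised 0, where 1.72% of all genes and probes tested were lower and 2.35% higher. OMsup alone raised 1 and lowered 0 (4.68% higher and 4.67% lower over all). An unadjusted p under 0.05, in either direction, was found for 1757 of all 12793 genes and probes with ATRA and 2638 with OMsup. At that limit, 1 member was higher with ATRA and 1 lower with OMsup. The first was Il1a, which entered the test only through the groups with ATRA, where it was higher. The second was Nlrp3, which was at the background limit and not above it with OMsup, so neither gives support to a change. The combination raised 1 and lowered 2 against untreated cells (7.88% and 7.26% over all). Against ATRA alone it raised 2 and lowered 1 (4.98% and 5.42%), and against OMsup alone it raised 1 and lowered 3 (2.73% and 1.77%). The interaction, the effect of ATRA with OMsup minus that without it, was called by limma for 0 members (0.164% higher and 0.0782% lower over all). An unadjusted p under 0.05 was found for 670 of all 12793 genes and probes and for 4 members. These 4 were Il1b, Casp1, Pycard and Nlrp3, the last of them at the background limit. OMsup cells set against ATRA cells had 3 members higher and 1 lower (6.25% and 7.11%). The lower one was Il1a, which entered the test only through the groups with ATRA, where it was higher, so its call gives no support to the count. Comparisons that share a group share its 2 arrays and are not independent. In bulk samples, fewer cells of a type and less RNA per cell cannot be told apart.

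**Figure D1:**
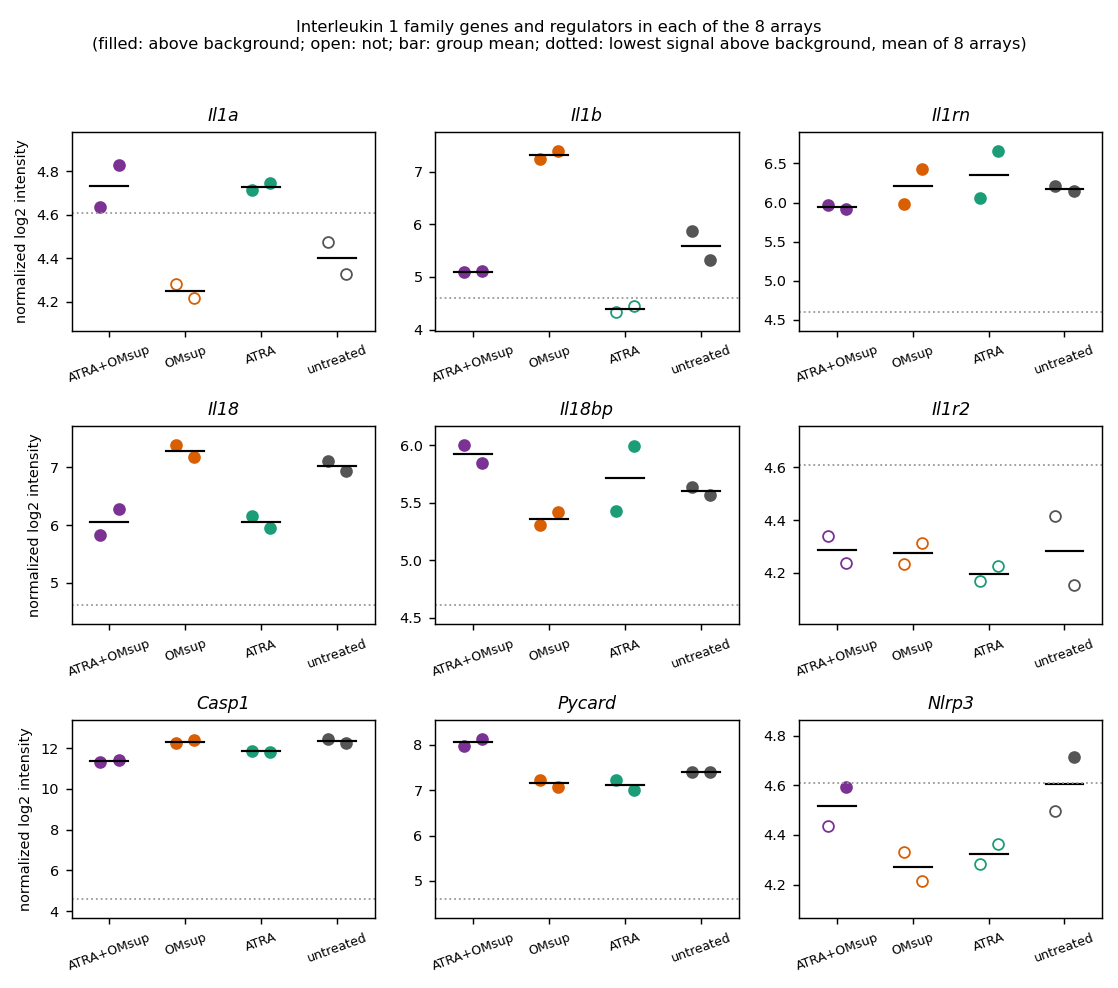
Normalized log2 intensity (y axis, a separate range for each gene) of 9 genes on the 8 arrays, by group. Filled points were above background and open points were not, bars are means of 2 arrays, and the dotted line is the lowest signal above background, averaged over arrays. Il1b was highest in OMsup cells, at 7.24 and 7.39, Il18 was lower in both groups with ATRA, and Pycard was highest in ATRA+OMsup cells.

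Among the agonists, Il1b, which encodes interleukin 1 beta, had a normalized log2 intensity of 5.10 and 5.11 in ATRA+OMsup cells, 7.24 and 7.39 in OMsup cells, 4.34 and 4.44 in ATRA cells and 5.88 and 5.31 in untreated cells. Both ATRA arrays were below the background limit, and the values of the 4 groups did not overlap. The group means were 5.10 ± 0.01 in ATRA+OMsup cells, 7.31 ± 0.10 in OMsup cells, 4.39 ± 0.07 in ATRA cells and 5.60 ± 0.40 in untreated cells (SD, n = 2 arrays each). OMsup raised Il1b by 1.72 over untreated cells (SE 0.198, adjusted p = 0.00028), a 3.29-fold difference. Since ATRA cells were not above background, Il1b was at least 1.96-fold lower with ATRA than in untreated cells (adjusted p = 0.00609). When ATRA was added to the supernatant, Il1b fell by 2.21 on the log2 scale (SE 0.198, adjusted p = 8.08e-05). It was at least 6.47-fold higher in OMsup cells than in ATRA cells (adjusted p = 4.56e-06). From OMsup cells down, the order of the levels was OMsup, untreated, ATRA+OMsup and ATRA. ATRA+OMsup and untreated cells, neighbours in that order, did not differ past the threshold (log2 difference -0.49, SE 0.198, 95% interval -0.93 to -0.06, adjusted p = 0.133), although Il1b passed without the second untreated array (-0.77, adjusted p = 0.0417).

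The lowest neighbouring pair was close: Il1b was at least 1.39-fold higher in ATRA+OMsup cells than in ATRA cells (adjusted p = 0.0453), a call that ended in 11 of 18 other settings, among them the omission of any one array of the ATRA+OMsup, OMsup or ATRA groups, with adjusted p up to 0.226. The fall with ATRA alone did not pass without the first ATRA array (-1.14, adjusted p = 0.0625) or without the first untreated array (-0.93, adjusted p = 0.0552). Without background correction the fitted changes of Il1b shrank, to 0.83, adjusted p = 4.28e-05 for OMsup against untreated cells and -0.99, adjusted p = 2.41e-05 for ATRA+OMsup against OMsup cells. Both remained calls in all 18 other settings. The Il1b changes given as bounds also shrank without background correction, to 1.17 (adjusted p = 2.57e-06) for OMsup against ATRA cells. They were then -0.34 (adjusted p = 0.0254) for ATRA against untreated cells and 0.18 (adjusted p = 0.177) for ATRA+OMsup against ATRA cells. These bounds therefore hold only for the main processing. The interaction for Il1b was -1.01 (SE 0.28, adjusted p = 0.379) and was not called, but its part without OMsup was only a bound. This interaction passed without background correction (-0.65, adjusted p = 0.0292) and, at -0.67, adjusted p = 0.0341, on the authors' normalized matrix.

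The summed linear intensity of the 11 neutrophil markers with a probe was 1559 to 1857 in ATRA+OMsup cells, 1990 to 2590 in OMsup cells, 934 to 1092 in ATRA cells and 1522 to 1906 in untreated cells. Like Il1b, it was highest in OMsup cells and lowest in ATRA cells, but ATRA+OMsup and untreated cells overlapped. With OMsup against untreated cells the markers did not move together. Of 9 tested, OMsup raised 1, Mpo, a granule enzyme gene (log2 change 0.89, adjusted p = 0.011), and lowered 3. Of these, the granule genes Ltf and Ngp fell (log2 change -1.09, adjusted p = 0.0161 and log2 change -0.69, adjusted p = 0.0391), and Camp, not above background in OMsup cells, was lower by at least 1.47-fold (adjusted p = 0.00835). ATRA lowered 1 of the 9 against untreated cells. That was S100a8, a calcium-binding protein gene of neutrophils and monocytes (log2 change -0.86, adjusted p = 0.0353), which did not pass with OMsup (log2 change 0.38, adjusted p = 0.312). The median log2 change of the 9 with ATRA was -0.39. In OMsup cells against ATRA cells, 4 of the 9 were higher and 0 lower (median 0.76), where 6.25% and 7.11% were over all. When ATRA was added to OMsup, 0 of the 9 were called (median -0.22). Cxcr2, the neutrophil chemokine receptor gene, and Retnlg, a resistin family gene, were not above background in any group. The part of these markers in the Il1b result was not tested.

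Il1a, which encodes interleukin 1 alpha, was near the background limit, with 4.64 and 4.83 in ATRA+OMsup cells, 4.28 and 4.22 in OMsup cells, 4.71 and 4.74 in ATRA cells and 4.48 and 4.33 in untreated cells. Its tested probe was above background on both arrays of each group with ATRA and on no array of the groups without it, and a second probe was not above background on any array. Il1a entered the test through the groups with ATRA, where it was higher. It was at least 1.08-fold lower in OMsup cells than in ATRA cells (adjusted p = 0.0477), a call that ended in 10 of 17 other settings, among them the omission of any one array of the OMsup, ATRA or untreated groups (adjusted p up to 0.197). No other comparison of Il1a passed. Against untreated cells it differed by 0.33 in ATRA+OMsup cells and 0.33 in ATRA cells (adjusted p = 0.159 and 0.332).

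Il18, which encodes interleukin 18, had 5.83 and 6.29 in ATRA+OMsup cells, 7.39 and 7.19 in OMsup cells, 6.16 and 5.94 in ATRA cells and 7.11 and 6.93 in untreated cells. Every array with ATRA was below every array without it. The means were 6.06 ± 0.32 in ATRA+OMsup cells, 7.29 ± 0.14 in OMsup cells, 6.05 ± 0.16 in ATRA cells and 7.02 ± 0.13 in untreated cells (SD, n = 2 arrays each). Il18 fell by 0.96 with the combination (SE 0.197, adjusted p = 0.00683) and by 0.97 with ATRA alone (SE 0.197, adjusted p = 0.0189), both against untreated cells. When ATRA was added to OMsup, Il18 fell by 1.23 (SE 0.197, adjusted p = 0.00413). OMsup cells exceeded ATRA cells by 1.24 (SE 0.197, adjusted p = 0.00149). OMsup did not move it past the threshold: the differences were 0.27 against untreated cells (95% interval -0.17 to 0.70, adjusted p = 0.511) and 0.01 when OMsup was added to ATRA (95% interval -0.43 to 0.44, adjusted p = 0.993).

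A second Il18 probe gave 5.33 and 5.11 in ATRA+OMsup cells, 6.07 and 5.95 in OMsup cells, 5.46 and 5.12 in ATRA cells and 6.17 and 5.76 in untreated cells. Its differences were -0.74 (SE 0.203, adjusted p = 0.0336) for ATRA+OMsup and -0.67 (SE 0.203, adjusted p = 0.124) for ATRA against untreated cells, and -0.79 (SE 0.203, adjusted p = 0.0627) for ATRA+OMsup against OMsup cells. All were in the direction of the tested probe, and the first passed. On this second probe OMsup cells also exceeded ATRA cells, by 0.72 (SE 0.203, adjusted p = 0.0419), which passed. The fall of Il18 with ATRA alone ended without any single one of the 4 arrays compared, with adjusted p from 0.0723 to 0.177, and the fall with the combination ended without the first untreated array (adjusted p = 0.0562). Without background correction the change with ATRA alone was -0.48, adjusted p = 0.0158, and that of ATRA+OMsup against OMsup cells was -0.64, adjusted p = 0.0028.

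**Figure D2:**
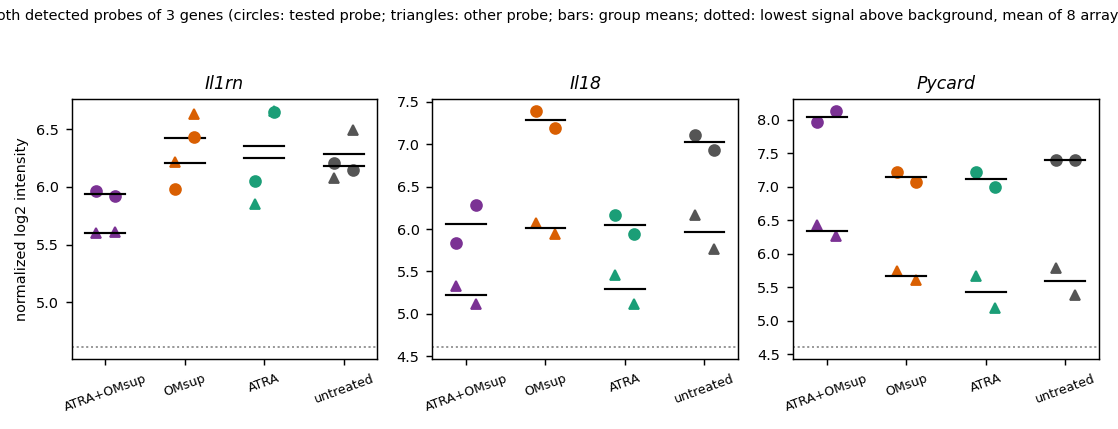
Normalized log2 intensity (y axis) of both detected probes of Il1rn, Il18 and Pycard on the 8 arrays, by group. Circles are the tested probe, triangles the other one, bars the means of 2 arrays and the dotted line the lowest signal above background, averaged over arrays. For Il18 both probes were lower in the groups with ATRA, and for Pycard both were highest in ATRA+OMsup cells.

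The start regions of the genes that moved are shown because Il1b, Il18 and Casp1 were lower together with ATRA while Pycard was higher with the combination. Each runs from 250 bases before to 50 bases after an annotated RefSeq start of build GRCm38.p6, read along the gene, and all 10 members had such a window. Capitals mark matches, on either strand, to 7 motifs: NF-kB (by its consensus), AP-1 (TGANTCA), STAT (TTCNNNGAA), the interferon-stimulated response element (GAAANNGAA), the retinoic acid receptor half-site (AGGTCA), ETS (GGAAGT) and the TATA box (TATAAA).
Il1b (chr2:129371090-129371389, minus strand): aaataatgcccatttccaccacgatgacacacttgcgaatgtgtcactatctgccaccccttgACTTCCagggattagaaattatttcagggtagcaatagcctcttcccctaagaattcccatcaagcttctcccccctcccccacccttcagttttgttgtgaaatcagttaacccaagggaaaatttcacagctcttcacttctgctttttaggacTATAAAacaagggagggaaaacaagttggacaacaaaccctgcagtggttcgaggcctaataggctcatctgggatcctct
Il18 (chr9:50554450-50554749, plus strand): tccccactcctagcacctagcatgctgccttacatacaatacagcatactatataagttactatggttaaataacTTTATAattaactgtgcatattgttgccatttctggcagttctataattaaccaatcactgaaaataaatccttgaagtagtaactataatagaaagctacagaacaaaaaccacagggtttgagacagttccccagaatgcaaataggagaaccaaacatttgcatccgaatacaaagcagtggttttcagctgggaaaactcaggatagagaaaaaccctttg
Casp1 (chr9:5298267-5298566, plus strand): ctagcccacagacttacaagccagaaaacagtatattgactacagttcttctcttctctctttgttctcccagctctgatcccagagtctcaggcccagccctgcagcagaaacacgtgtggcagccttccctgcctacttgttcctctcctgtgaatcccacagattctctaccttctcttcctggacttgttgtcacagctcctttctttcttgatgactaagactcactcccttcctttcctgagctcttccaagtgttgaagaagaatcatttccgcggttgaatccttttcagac
Pycard (chr7:127993818-127994117, minus strand): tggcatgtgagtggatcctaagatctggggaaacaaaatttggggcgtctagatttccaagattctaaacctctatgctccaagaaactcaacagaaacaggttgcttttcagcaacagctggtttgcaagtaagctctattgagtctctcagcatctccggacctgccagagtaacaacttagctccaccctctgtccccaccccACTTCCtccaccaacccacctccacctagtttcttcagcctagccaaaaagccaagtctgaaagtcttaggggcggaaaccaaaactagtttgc
Il1b had a TATA box match at positions -31 to -26 from the start and an ETS match on the opposite strand at -187 to -182. Il18 had a TATA box match on the opposite strand at -175 to -170, Pycard an ETS match on the opposite strand at -44 to -39, and Casp1 no match. None of the matches overlapped. Of 32851 windows of this length, 13.6% held the TATA box letters and 23.8% the ETS letters. The share was 16.3% for the retinoic acid receptor half-site, 8.46% for NF-kB, 8.3% for STAT, 7.81% for AP-1 and 8.56% for the interferon-stimulated response element, and none of these 5 was in the 4 windows shown. A match is only a run of letters in the window.

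Of the antagonists, Il1rn, which encodes the interleukin 1 receptor antagonist, had 5.97 and 5.92 in ATRA+OMsup cells, 5.98 and 6.43 in OMsup cells, 6.05 and 6.65 in ATRA cells and 6.21 and 6.15 in untreated cells. The arrays of ATRA+OMsup cells were the lowest, and those of the other groups overlapped. The means were 5.94 ± 0.03 in ATRA+OMsup cells, 6.21 ± 0.32 in OMsup cells, 6.35 ± 0.42 in ATRA cells and 6.18 ± 0.05 in untreated cells (SD, n = 2 arrays each). No comparison passed, and adjusted p ran from 0.351 to 1. With OMsup alone, which raised Il1b by 1.72, Il1rn differed by 0.03 (95% interval -0.47 to 0.53). With ATRA alone it differed by 0.17 (95% interval -0.32 to 0.67), and when ATRA was added to OMsup by -0.26 (95% interval -0.76 to 0.23).

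A second Il1rn probe, paired with another transcript of the gene, had 5.60 and 5.61 in ATRA+OMsup cells, 6.22 and 6.63 in OMsup cells, 5.85 and 6.66 in ATRA cells and 6.08 and 6.49 in untreated cells. It was also lowest in ATRA+OMsup cells, at -0.82 (SE 0.269, adjusted p = 0.162) against OMsup cells, and did not pass. The remaining 2 Il1rn probes were not above background on any array.

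Il18bp, which encodes the interleukin 18 binding protein, had 6.00 and 5.84 in ATRA+OMsup cells, 5.31 and 5.41 in OMsup cells, 5.43 and 6.00 in ATRA cells and 5.64 and 5.56 in untreated cells. Both OMsup arrays were below all the others. No comparison passed: the largest difference, 0.56 between ATRA+OMsup and OMsup cells (95% interval 0.12 to 1.00), had an adjusted p = 0.205. In that comparison Il18 fell by 1.23. Il1r2, the decoy receptor gene, was not above background on any of the 8 arrays and was not tested.

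Among the inflammasome genes, Casp1, which encodes caspase-1, had 11.29 and 11.43 in ATRA+OMsup cells, 12.23 and 12.39 in OMsup cells, 11.87 and 11.82 in ATRA cells and 12.46 and 12.25 in untreated cells. ATRA+OMsup arrays were the lowest and ATRA arrays the next lowest, while OMsup and untreated arrays overlapped. The means were 11.36 ± 0.10 in ATRA+OMsup cells, 12.31 ± 0.11 in OMsup cells, 11.84 ± 0.04 in ATRA cells and 12.36 ± 0.15 in untreated cells (SD, n = 2 arrays each). Casp1 fell by 0.99 with the combination against untreated cells (SE 0.118, adjusted p = 0.000195), to 0.503 of their level. It fell by 0.95 when ATRA was added to OMsup (SE 0.118, adjusted p = 0.000905). These calls held in all 18 other settings.

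The lymphoid marker Il7r was also lower with the combination, against untreated cells (log2 change -0.89, adjusted p = 0.00198) and against ATRA cells (log2 change -0.59, adjusted p = 0.0286). Rora, the other tested gene of its list, did not pass against untreated cells (log2 change 0.18, adjusted p = 0.569) or ATRA cells (log2 change -0.19, adjusted p = 0.63). The summed linear intensity of the 8-gene list was 1016 to 1041 in ATRA+OMsup cells, 1096 to 1479 in OMsup cells, 1468 to 1527 in ATRA cells and 1754 to 1774 in untreated cells. Most of that sum was Il7r, whose mean log2 intensity in untreated cells was 10.67, where that of Rora was 7.12. The sum therefore adds little to the values of Il7r. The part of Il7r in the Casp1 result was not tested.

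Casp1 fell by 0.51 with ATRA alone (SE 0.118, adjusted p = 0.0365), and it fell by 0.48 when OMsup was added to ATRA (SE 0.118, adjusted p = 0.0247). With OMsup alone Casp1 differed by -0.05 from untreated cells (95% interval -0.31 to 0.21, adjusted p = 0.884). The interaction was -0.43 (SE 0.167, adjusted p = 0.801) and was not called, so a different effect of OMsup with and without ATRA is not shown. The call with ATRA alone ended in 7 of 18 other settings, among them the scaling of arrays to a common median (-0.47, adjusted p = 0.0881) and the omission of any one of the 4 arrays compared (adjusted p up to 0.275). The call of ATRA+OMsup against ATRA cells ended in 4, among them the omission of the first ATRA+OMsup array or of either ATRA array, with adjusted p up to 0.163 without the first ATRA array. The difference between OMsup and ATRA cells, 0.46 (SE 0.118, adjusted p = 0.0236), ended in 5, among them the scaling to a common median (0.33, adjusted p = 0.135) and the omission of the second OMsup array or of either ATRA array (adjusted p up to 0.166).

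Pycard, which encodes the adaptor ASC, had 7.97 and 8.13 in ATRA+OMsup cells, 7.22 and 7.08 in OMsup cells, 7.22 and 7.00 in ATRA cells and 7.40 and 7.40 in untreated cells. Both ATRA+OMsup arrays were above all the others. The means were 8.05 ± 0.12 in ATRA+OMsup cells, 7.15 ± 0.10 in OMsup cells, 7.11 ± 0.16 in ATRA cells and 7.40 ± 0.00 in untreated cells (SD, n = 2 arrays each). The combination raised Pycard by 0.65 over untreated cells (SE 0.16, adjusted p = 0.0186), by 0.94 over ATRA cells (SE 0.16, adjusted p = 0.00314) and by 0.90 over OMsup cells (SE 0.16, adjusted p = 0.00762). Each agent alone gave a value below untreated cells that did not pass, -0.25 with OMsup (adjusted p = 0.434) and -0.29 with ATRA (adjusted p = 0.515). The interaction was 1.19 (SE 0.227, adjusted p = 0.0972) and missed the threshold.

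A second Pycard probe had 6.43 and 6.26 in ATRA+OMsup cells, 5.74 and 5.61 in OMsup cells, 5.67 and 5.19 in ATRA cells and 5.79 and 5.39 in untreated cells. With OMsup alone it differed by 0.09 from untreated cells, and its ATRA and untreated arrays overlapped. Its interaction was 0.83 (SE 0.302, adjusted p = 0.828) and was not called. It too was highest with the combination, at 0.75 (SE 0.214, adjusted p = 0.039) over untreated and 0.92 (SE 0.214, adjusted p = 0.0205) over ATRA cells, which passed. The difference of 0.67 (SE 0.214, adjusted p = 0.151) over OMsup cells did not. The call against untreated cells ended with arrays scaled to a common median (0.59, adjusted p = 0.0693) and without either untreated array or the second ATRA+OMsup array (adjusted p up to 0.105). The call against OMsup cells ended without the second array of either group (adjusted p up to 0.0651).

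Nlrp3, the sensor gene, was at the background limit, with 4.44 and 4.59 in ATRA+OMsup cells, 4.33 and 4.22 in OMsup cells, 4.28 and 4.36 in ATRA cells and 4.50 and 4.72 in untreated cells. Its tested probe was above background on 1 of 2 ATRA+OMsup arrays and 1 of 2 untreated arrays and on none of the others. A second probe was above background only on the second untreated array, at 5.17. No comparison of Nlrp3 passed (lowest adjusted p = 0.22), so differences were not detectable at this signal.

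**Figure D3:**
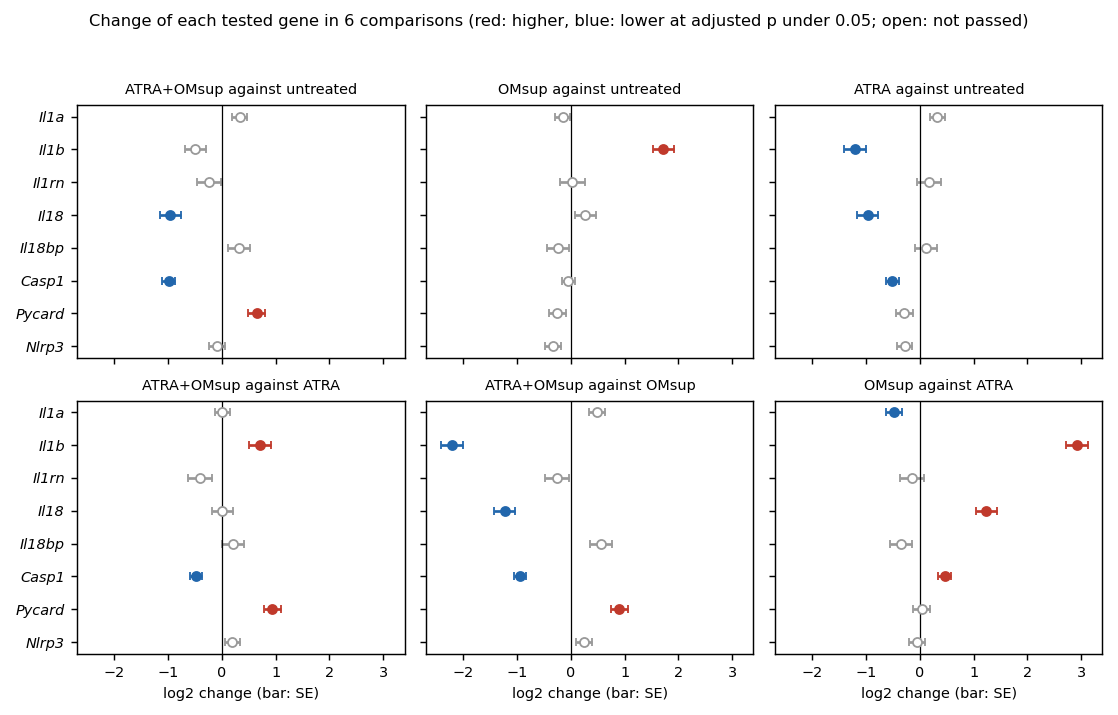
Log2 change (x axis) with its SE for the 8 tested genes in 6 comparisons, each the first group named minus the second. Red and blue points passed at an adjusted p under 0.05 as higher and lower, and open points did not pass. Il1b had changes of 1.72 in OMsup against untreated cells and -2.21 in ATRA+OMsup against OMsup cells.

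The wider pathway was described through 5 gene lists, whose counts are over tested genes and whose medians stand beside that of all tested genes and probes, which lay between -0.01 and 0.01 in every comparison. Over all genes and probes, 7.88% were higher and 7.26% lower with the combination than in untreated cells. The shares were 4.68% and 4.67% with OMsup, and 2.35% and 1.72% with ATRA. Of 6 other cytokine genes of the family, among them Il33, only Il1f10 was above background often enough to be tested, and it did not pass. In the list of receptors and proximal signalling, 18 of 20 genes were tested. OMsup raised 2 and lowered 1 (median -0.05), ATRA changed 0 by limma's test, with 2 at an unadjusted p under 0.05 (median -0.01), and the combination raised 1 (median 0.03). Over all 12793 genes and probes, 1757 had an unadjusted p under 0.05 with ATRA. Myd88, the adaptor of interleukin 1 and Toll-like receptors, rose by 0.69 with OMsup (adjusted p = 0.00239) and fell by 0.48 when ATRA was added to OMsup (adjusted p = 0.0328). Irak2, a kinase of the same receptor complexes, fell by 0.92 with OMsup (adjusted p = 0.00359) and rose by 1.11 when ATRA was added to OMsup (adjusted p = 0.00204). Peli2, an E3 ubiquitin ligase that acts on IRAK proteins, rose by 0.83 with the combination and 0.71 with OMsup (adjusted p = 0.00531 and 0.0191). The receptor genes Il1r1 and Il1rap did not pass in any comparison (lowest adjusted p = 0.0908 and 0.392).

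Of 26 other inflammasome genes, 17 were tested. The combination raised 3 and lowered 2 (median 0.14), OMsup raised 5 (median 0.17) and ATRA lowered 2 (median -0.02), each against untreated cells. Casp4, which encodes the caspase that senses cytosolic lipopolysaccharide (caspase-11), rose by 0.89 with OMsup (SE 0.19, adjusted p = 0.0127) and fell by 0.98 with ATRA (SE 0.19, adjusted p = 0.0145). When ATRA was added to OMsup, Casp4 fell by 1.22 (adjusted p = 0.00347), in the direction of Casp1. Mefv, which encodes the sensor pyrin, rose by 1.44 with the combination and 1.54 with OMsup (adjusted p = 0.000466 and 0.000511) and fell by 0.91 with ATRA (adjusted p = 0.0236). Panx1, a membrane channel gene, rose by 1.08 with the combination and 1.17 with OMsup (adjusted p = 0.0018 and 0.0018). Pstpip1, which encodes a binding partner of pyrin, and Nlrx1, a mitochondrial NLR gene, rose with OMsup by 0.80 and 0.76 (adjusted p = 0.0049 and 0.0179).

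Of 18 genes of NF-kB subunits, feedback inhibitors and the kinases encoded by Ikbkb and Ikbke, 16 were tested. The combination raised 2 and lowered 3 (median -0.13), OMsup raised 1 and lowered 3 (median 0.03), and ATRA raised 1 and lowered 1 (median -0.24). Ikbke, one of these kinase genes, rose with ATRA by 1.34 and fell with OMsup by 0.86 (adjusted p = 0.00198 and 0.012), the reverse of Il1b. Bcl3, a nuclear cofactor of NF-kB, rose by 1.25 with the combination and 1.23 with OMsup (adjusted p = 0.00541 and 0.0093). Tnfaip3, which encodes the feedback inhibitor A20, and Nfkbiz, which encodes IkB-zeta, fell with OMsup by 1.09 and 1.02 (adjusted p = 0.0135 and 0.0149). Zc3h12a, an RNase gene that limits cytokine transcripts, passed between OMsup and ATRA cells, at 0.94 (adjusted p = 0.0159), and not against untreated cells.

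Of 15 cytokine and enzyme genes that interleukin 1 can induce, 9 were tested, and Il6, Ptgs2 and Nos2 were not above background often enough. The combination raised 5 and lowered 1 (median 0.79), OMsup raised 1 and lowered 2 (median -0.07), and ATRA raised 2 (median -0.06). The neutrophil chemokine gene Cxcl1 fell by 1.31 with OMsup (adjusted p = 0.00227), where Il1b rose, and rose by 2.09 when ATRA was added to OMsup (adjusted p = 0.000161), where Il1b fell. The tested probe of Cxcl2, a related chemokine gene, was not above background in OMsup cells. Cxcl2 was at least 1.79-fold lower with OMsup than in untreated cells (adjusted p = 0.00473) and at least 5.45-fold higher with ATRA+OMsup than with OMsup (adjusted p = 1.67e-05). Ccl2, a monocyte chemokine gene, was not above background in OMsup or untreated cells and so entered the test only through the groups with ATRA, where it was higher. Its calls are among those counted for ATRA and the combination and give no support to these counts. Against untreated cells Ccl2 was higher by at least 2.08-fold with the combination and by at least 1.42-fold with ATRA (adjusted p = 0.00012 and 0.0118). Saa3, an acute phase gene, rose by 5.08 with the combination and 5.69 with OMsup (adjusted p = 1.07e-05 and 7.94e-06). Its untreated arrays lay far apart, at 7.12 and 5.51, so the sizes of these rises are uncertain. Mmp9, a gelatinase gene, rose by 2.66 with the combination and 3.52 with ATRA (adjusted p = 1.96e-05 and 2.8e-05).

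**Figure D4:**
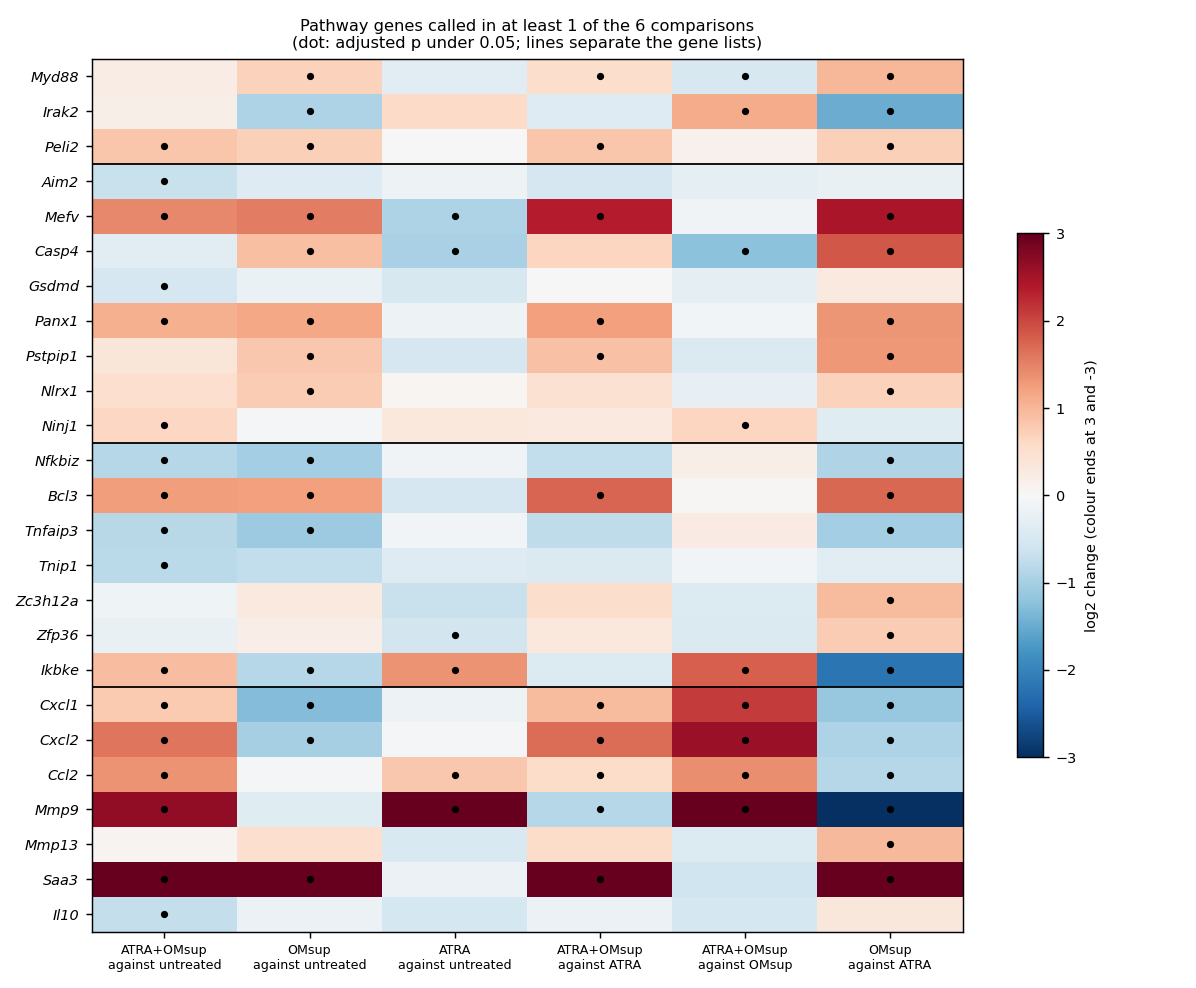
Log2 change (colour, ending at 3 and -3) of the 25 of 61 tested pathway genes that were called in at least 1 of 6 comparisons (columns, first group named minus the second). Dots mark an adjusted p under 0.05 and lines separate the gene lists. Casp4 was higher with OMsup and lower with ATRA, and Cxcl1 and Cxcl2 were lower with OMsup and higher with the combination, both against untreated cells.

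For each member with a call, the named genes with the most similar levels over the 8 arrays were sought among 2414 called genes, as a description only, since the arrays share 4 groups. Il1b was most like H2bc9, Dmkn and H2bc11 (Pearson r = 0.991, 0.984 and 0.984), of which H2bc9 and H2bc11 are histone H2B genes. Casp1 was most like Niban1, H1f2 and Niban2 (r = 0.983, 0.972 and 0.967), and Il18 like Plekhg3, Clec4a1 and Mfap3l (r = 0.977, 0.977 and 0.970). Pycard was most like Ticam2, Actn3 and Tiam2 (r = 0.970, 0.946 and 0.932), and Il1a like Cask, Ifitm3 and AI467606 (r = 0.970, 0.965 and 0.965). Ticam2 encodes an adaptor of Toll-like receptor 4.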

How the data were processed

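Per the labels, RNA of 8 samples was amplified to biotin-labelled cRNA and hybridized in 1 colour to an Illumina mouse bead array. The deposited non-normalized table gives each probe on each array an intensity on a linear scale, with a detection p-value beside it. Per the file headers each detection p-value follows its array's column. A deposited matrix of linear intensity served only as an alternative. Its medians per array lay at 95.07 to 95.08, so it was already normalized between arrays, by a step that the labels do not state. No source used here names the upstream software.

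Intensities were corrected and quantile-normalized with neqc in limma 3.58.1 (R 4.3.3), with negative controls inferred from detection p-values and an offset of 16, on the log2 scale. The number of arrays, 2 in each group, limits the precision. Above background means a detection p under 0.05, and 18503 of 45281 probes met it on at least 2 arrays. A symbol was represented by its brightest such probe, and other probes were read from a fit of every probe. Gene names came from the probe table given for the platform, in which 34885 probes had 1 symbol, 18 several and 10378 none. Group means of all 8 arrays were fitted together (lmFit, eBayes with a trend, Benjamini-Hochberg over 12793 genes and probes). Where a group was not above background, the fold is a bound: the other group's mean against the mean of, per array, the higher of the probe's own signal and the lowest signal above background.

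Alternatives were background correction, offset, scaling, the deposited matrix, detection filter, probe choice, trend, replicate block and leaving out each array. The fit was tested on simulated data. The members, the gene lists and the tests were chosen with earlier results of these data known. All members are named, with up to 5 of the largest called genes of each pathway list and, for each member called, the 3 genes most alike. Promoter windows came from RefSeq, build GRCm38.p6. Probes can bind transcripts of close relatives, such as those of the Casp1 and Casp4 group.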

Additional observations from a re-analysis of the deposited data

Results flagged for a closer look

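The effect of ATRA with OMsup minus its effect without OMsup passed limma's test for 2 of the genes named, the chemokine genes Cxcl1, at 2.25 (adjusted p = 0.00783), and Cxcl2, at 2.66 (adjusted p = 0.00164). The tested Cxcl2 probe was not above background in OMsup cells, so the part with OMsup rests on a bound and the fitted values are not exact. The log2 difference that ATRA made for Cxcl1 was 2.09 with OMsup and -0.16 without it, and the fitted one for Cxcl2 was 2.60 with OMsup and -0.06 without it.

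For the tested Pycard probe, both arrays with ATRA lay above those without it in the presence of OMsup (0.90). In the absence of OMsup they lay below (-0.29), and the difference was 1.19 (adjusted p = 0.0972), which did not pass. The second Pycard probe had overlapping ATRA and untreated arrays, and its difference was 0.83 (adjusted p = 0.828). The tested Nlrp3 probe showed the same kind of split as the tested Pycard probe, at the background limit (0.24 with OMsup and -0.28 without). Its difference was 0.53 (adjusted p = 0.803), which did not pass.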

How the results depend on the processing

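None of the 18 called single-gene results changed sign under any alternative, while 13 of the 38 that were not called did under at least 1. Of the single-gene results under settings other than leaving out an array, 526 kept their side of the threshold, 16 lost a call and 4 gained one. With 1 array left out, 413 kept their side, 34 lost a call and 1 gained one. The calls that held in all 18 settings were Il1b for OMsup against untreated and ATRA cells and for ATRA+OMsup against OMsup cells, Il18 for OMsup against ATRA and ATRA+OMsup against OMsup cells, Casp1 for ATRA+OMsup against untreated and OMsup cells, and Pycard for ATRA+OMsup against ATRA cells. The number of members called moved by more than 1.5 times in these cases, and by less in others that the single-gene tallies include: the interaction had 1 without background correction and on the deposited matrix (Il1b), and OMsup against ATRA had 2, against 4, with eBayes without a trend. Leaving out 1 array at a time gave 1 to 3 members for ATRA+OMsup, 1 to 1 for OMsup and 0 to 3 for ATRA against untreated cells. It gave 1 to 3 for ATRA+OMsup against ATRA, 3 to 4 against OMsup, 2 to 4 for OMsup against ATRA and 0 to 0 for the interaction. The count of 0 for ATRA came without the first ATRA or the first untreated array, and it was 1 without the other array of either group. Over all genes and probes the same omissions gave 1112 to 1912, 620 to 1323, 220 to 595, 675 to 1288, 322 to 485, 1046 to 1850 and 14 to 34 calls in the same order. The lone array of a group was then assumed to vary like the other groups. Arrays of the same number in different groups share only a number in the labels. Their deviations from the group means correlated at -0.01 to 0.53 over the 6 pairs of groups. Between treated groups the values were 0.53 (ATRA+OMsup with OMsup), 0.43 (ATRA+OMsup with ATRA) and 0.46 (OMsup with ATRA). With untreated cells they were -0.01 for ATRA+OMsup, 0.03 for OMsup and 0.21 for ATRA. Whether treated arrays of the same number shared a culture or batch is not stated in the labels, and the main fit had no block. With the replicate number as a block, 924 genes and probes were called for ATRA against untreated cells, 899 for ATRA+OMsup against OMsup cells and 65 for the interaction, where 1 member, Pycard, passed (1.19, adjusted p = 0.0304). The chip as a block was not run, since no source used here says which chip held which array. Il1a and Nlrp3 could not be tested with the stricter detection limit of 0.01. Signal over background limits Il1a, Nlrp3 and Il1b with ATRA, whose values sit at the floor.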
